A study of Mus musculus with 6 samples.

Results

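The autophagy machinery and its cargo receptors were followed here as 40 genes, chosen by name from the 55401 genes of the deposited table and grouped by the step in which their products act. All 40 were found once each in the table, and all 40 were among the 18164 genes with enough counts to be tested. The material was RNA from mouse bone marrow-derived macrophages, the cells that bone marrow precursors become in culture with the growth factor M-CSF, which all samples had received. There were 3 libraries with the genotype Lamtor5 knockdown and 3 WT libraries. The study's design text writes the mutant as HBXIPΔLysM, where HBXIP is another name for Lamtor5 and LysM names the lysozyme locus Lyz2, whose promoter is used to direct recombination to myeloid cells. The labels used here give no age, and do not state if each library stands for its own mouse or culture. The p-values therefore measure the spread between libraries, which may be technical.

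Macroautophagy is the route by which a cell wraps cytoplasm in a new double membrane and delivers it to the lysosome. A kinase complex around ULK1 starts the process, a lipid kinase complex around Beclin 1 marks the site with PI3P, and a pair of ubiquitin-like conjugation reactions attach small ATG8 proteins (the LC3 and GABARAP families) to the growing membrane. Cargo receptors bind both ATG8 proteins and the cargo, such as ubiquitinated aggregates, bacteria or mitochondria. Lamtor5 belongs to Ragulator, the lysosomal anchor of mTORC1, and active mTORC1 phosphorylates ULK1 and ATG13 and thereby restrains autophagy; transcripts, measured here, do not report that activity.

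Each library held 26.0 to 28.0 M read pairs, and its estimated counts came to 75.8 to 83.2 M. Lamtor5 had 25.5, 27.1 and 24.8 FPKM (fragments per kilobase of transcript, scaled to library depth) in the knockdown libraries, against 55.9, 54.5 and 56.2 FPKM in WT. Macrophage markers were present in all libraries, with Csf1r, the M-CSF receptor gene, at 160 to 223 FPKM in knockdown libraries and at 347 to 541 FPKM in WT. Of 10 macrophage markers, 6 were called lower and 1 (Cd68) higher. Lyz2, also among the 10, is the locus in the mutant's name and did not pass. Knockdown replicate 3 stood apart at Lyz2, with 73.6 FPKM, against 11356 and 10650 FPKM in knockdown replicates 1 and 2 and 22454 to 29379 FPKM in WT. The summed FPKM of 8 cell division genes was 19.1 to 41.5 in the knockdown and 106 to 234 in WT, and all 8 were called lower. Of 8 mast cell, basophil and eosinophil markers 2 were called higher, with sums of 6.56 to 15.3 FPKM in knockdown libraries and 2.17 to 4.54 FPKM in WT. The sums were 10.6 to 31.1 and 56.0 to 72.5 FPKM for 6 B cell markers (1 called lower), 38.4 to 142 and 49.1 to 52.8 FPKM for 6 erythroid and megakaryocyte markers (1 called higher), and 78.6 to 125 and 101 to 153 FPKM for 8 neutrophil markers (1 called higher, 1 lower), in each case the knockdown before WT. For 6 fibroblast, 6 dendritic cell and 7 T and NK cell markers the sums stayed at or under 8.42 FPKM in all libraries. All fibroblast and dendritic cell markers and 2 of the 7 T and NK cell markers had enough counts to be tested, and none of those tested was called. Cd3g was listed at 0.0001 FPKM, the table's entry for no counts, in all 6. The part of these markers in the results below was not tested, and in bulk RNA fewer cells of a type and less RNA per cell cannot be told apart.

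The knockdown libraries held more transcript of part of this machinery, mainly ATG8 genes, cargo receptor genes and the tether gene Tecpr1. Of the 40 genes 11 rose and none fell at a Benjamini-Hochberg adjusted p of 0.05 in edgeR's quasi-likelihood test across all genes (27.5% of the genes higher). Among all tested genes, 4.87% were called higher and 6.46% lower, 11.3% in all (2058 of 18164). The genes tested included some with fewer counts than any of the 40. With a minimum count of 50, 2392 of 14187 genes were called in either direction, and of the 40 genes 12 higher and 1 lower. At an unadjusted p under 0.05, 16 of the 40 genes were higher and 3 lower, where 14.5% of all tested genes were higher and 15.7% lower. DESeq2 called 3 of the 40 lower (Atg101, Atg4d and Atg9a), against 9.73% of the genes to which it gave an adjusted p. The genes that rose were Optn, Tecpr1, Gabarapl1, Map1lc3a, Bnip3l, Atg12, Nbr1, Tax1bp1, Atg14, Atg13 and Gabarap, by log2 fold changes (knockdown over WT) of 0.35 to 1.39. By step, 3 of 5 ATG8 genes, 4 of 8 cargo receptor genes and the tether Tecpr1 rose, against 1 of 5 initiation, 1 of 6 nucleation, none of 5 membrane supply and 1 of 10 conjugation genes. The median log2 fold change was 0.22 over the 40 genes and 0.02 over all genes tested. The 40 genes were chosen with earlier results of these data known, so these shares describe them and carry no test.

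In the FPKM values alone, 17 of the 40 genes (42.5%) had every knockdown library above every WT library, where 16.3% of all tested genes did so, and 6 (15.0%) had every knockdown library below, against 21.3% of all tested genes. The groups overlapped in the other 17 genes; among all tested genes 37.6% did not overlap, in either direction. The 17 genes above included all 5 ATG8 genes and 6 of the 8 cargo receptor genes. The 6 genes below were Atg101, Atg9a, Atg4a, Atg4d, Atg10 and Atg16l1, of which 4 belong to the conjugation step.

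The calls depended on single libraries. With WT replicate 2 left out no gene of the table passed in edgeR (4065 had an unadjusted p under 0.05), and among the 40 genes 15 higher and 3 lower ones had an unadjusted p under 0.05, where 10.2% of all genes tested were higher and 11.2% lower. The smallest adjusted p of the 40 was then 0.0616. In that fit 8 of the 40 genes had an adjusted p under 0.1 in either direction, as did 1225 of 18979 genes tested. The log2 fold changes of the 11 genes were 0.32 (Gabarap) to 1.42 (Optn) there. Without knockdown replicate 3, the library with little Lyz2, 5 genes rose (Optn, Tecpr1, Gabarapl1, Atg12 and Tax1bp1). The other 6 (Atg13, Atg14, Bnip3l, Gabarap, Map1lc3a and Nbr1) then had adjusted p values of 0.0587 to 0.13, and the log2 fold changes of the 11 genes were then 0.34 to 1.24. Without knockdown replicates 1 or 2 the number was 3 or 6, and without WT replicate 3 it was 3. Without WT replicate 1 it was again 11, of which 8 were the same genes: Atg13, Atg14 and Nbr1 no longer passed, and Atg2a, Calcoco1 and Map1lc3b did. Optn, Tecpr1 and Gabarapl1 passed under 17 of 18 other settings, the exception being the fit without WT replicate 2.

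**Figure D1:**
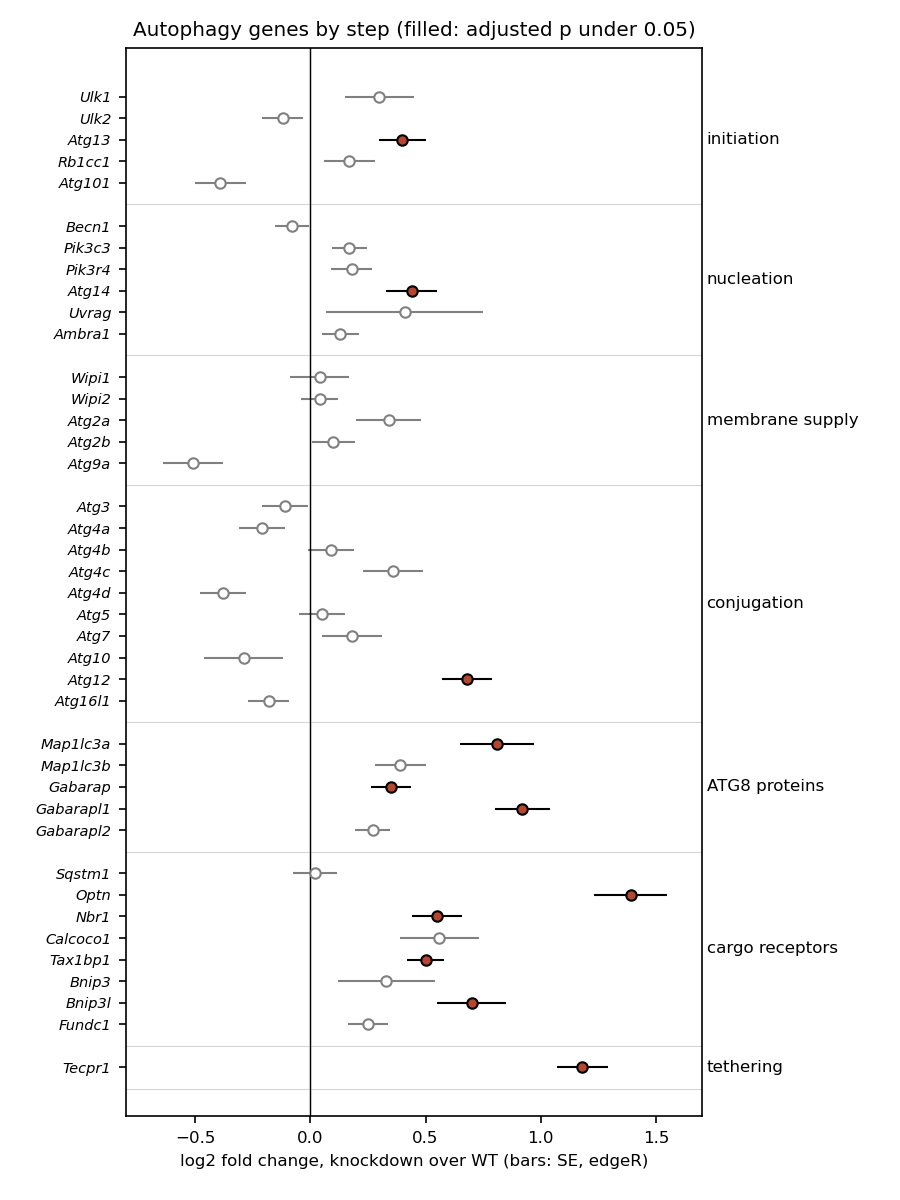
Log2 fold change of knockdown over WT (x axis) for the 40 autophagy genes (y axis), grouped by step from initiation at the top to tethering at the bottom. Points are edgeR estimates, bars are standard errors, and filled points mark an adjusted p under 0.05; the filled points run from 0.35 (Gabarap) to 1.39 (Optn) and no filled point lies left of 0.

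The sequences just upstream of the 3 genes with the largest increases are shown because these genes rose, with that of Atg3, which did not pass the test, as the one window among the 33 genes with a promoter entry that holds 2 copies of the E-box. Each is the 250 bases before the RefSeq start on GRCm38.p6, written 5′ to 3′ on the gene's strand, with CACGTG and TCACGTG matches on either strand in capitals.
Optn, chr2:5064118-5064367, minus strand: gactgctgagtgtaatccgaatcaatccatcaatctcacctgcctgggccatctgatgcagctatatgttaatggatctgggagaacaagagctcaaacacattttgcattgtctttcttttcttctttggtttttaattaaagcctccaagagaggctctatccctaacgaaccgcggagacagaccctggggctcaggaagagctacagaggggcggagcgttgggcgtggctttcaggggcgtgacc
Tecpr1, chr5:144223616-144223865, minus strand: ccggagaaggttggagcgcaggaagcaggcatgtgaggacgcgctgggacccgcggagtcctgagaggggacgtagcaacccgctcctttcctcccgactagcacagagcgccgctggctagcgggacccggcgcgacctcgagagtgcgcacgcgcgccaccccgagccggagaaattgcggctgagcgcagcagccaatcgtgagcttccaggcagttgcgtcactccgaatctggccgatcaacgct
Gabarapl1, chr6:129532942-129533191, plus strand: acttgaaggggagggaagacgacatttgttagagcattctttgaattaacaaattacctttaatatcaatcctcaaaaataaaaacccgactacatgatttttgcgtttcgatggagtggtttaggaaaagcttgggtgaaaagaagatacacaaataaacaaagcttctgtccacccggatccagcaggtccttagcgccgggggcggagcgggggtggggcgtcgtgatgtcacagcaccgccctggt
Atg3, chr16:45158579-45158828, plus strand: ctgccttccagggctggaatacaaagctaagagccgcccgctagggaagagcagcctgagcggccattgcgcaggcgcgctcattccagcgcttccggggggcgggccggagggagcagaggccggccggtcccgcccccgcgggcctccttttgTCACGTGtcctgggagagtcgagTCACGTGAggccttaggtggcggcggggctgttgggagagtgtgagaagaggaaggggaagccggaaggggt
CACGTG is the E-box core bound by TFEB and related factors of lysosome and autophagy genes, TCACGTG is a longer form that contains it, and GTAAACA is a core bound by FoxO factors. Searched on both strands over windows of 250 bases before to 50 after the start, CACGTG was found in 5 of 37 windows of the 40 genes (13.5%; Atg14, Atg3, Atg5, Atg7 and Bnip3), against 7.15% of all 32851 windows. TCACGTG was found in 3 of them (8.11%; Atg14, Atg3 and Atg7), against 3.77% of all windows, and GTAAACA in 0, against 3.65%. Of the genes that rose, 8 had an entry, and CACGTG was in 1 of their 10 windows (10%; Atg14). Of the genes that did not pass, 25 had an entry, and it was in 4 of their 27 windows (14.8%). No entry was found for Becn1, Atg12, Pik3c3, Map1lc3a, Bnip3l, Rb1cc1 and Atg16l1. A match is a string of letters in a window and not a measured binding site.

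Of the 5 genes of the ULK kinase complex, 1 rose. Atg13, which links the kinase to its scaffold, had 17.2, 16.1 and 18.5 FPKM in the knockdown, against 14.1, 12.7 and 13.8 FPKM in WT. The groups did not overlap, and Atg13 rose by a log2 fold change of 0.40 (SE 0.10, edgeR adjusted p = 0.0489). Atg101, the partner that stabilizes ATG13, had 14.9, 17.3 and 13.6 FPKM in knockdown libraries and 21.0, 19.5 and 21.4 FPKM in WT. All its knockdown values lay below WT, but at -0.39 (SE 0.11) the adjusted p was 0.0588, and it passed under 4 of 18 other settings. Atg101 was the most abundant initiation gene in WT and Atg13 in the knockdown. Of the kinases, Ulk1 averaged 10.04 ± 0.664 FPKM in knockdown libraries and 8.44 ± 1.43 FPKM in WT (SD, n = 3 each), and Ulk2 averaged 6.57 ± 0.500 and 7.37 ± 0.431 FPKM. Neither passed, with log2 fold changes of 0.30 and -0.12, and their FPKM overlapped between the groups. The log2 ratio of Ulk1 to Ulk2 was 0.76, 0.39 and 0.69 in the knockdown and 0.35, 0.36 and -0.16 in WT. The scaffold gene Rb1cc1 was the lowest of the step, at 2.26, 2.26 and 2.52 FPKM in knockdown libraries and 2.21, 2.30 and 1.96 FPKM in WT, and its groups overlapped.

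Among the 6 genes of the PI3 kinase complexes, the autophagy-specific subunit gene Atg14, which targets the complex to the forming membrane, rose. It had 5.12, 4.90 and 5.57 FPKM in the knockdown, against 4.08, 3.82 and 3.99 FPKM in WT (log2 fold change 0.44, SE 0.11, edgeR adjusted p = 0.0454). It was the lowest of the step in both groups, and its groups did not overlap. The catalytic subunit gene Pik3c3 was the most abundant of the step, at 10.4, 11.3 and 11.3 FPKM in knockdown libraries and 10.4, 10.1 and 9.88 FPKM in WT, and did not pass (0.17, adjusted p = 0.204). The shared subunits Becn1 (-0.08) and Pik3r4 (0.18) and the ULK1 and Beclin 1 partner Ambra1 (0.13) did not pass either. Uvrag, the subunit that replaces ATG14 in the endosomal form of the complex, had 7.49, 7.97 and 7.67 FPKM in knockdown libraries and 4.03, 9.89 and 4.11 FPKM in WT. WT replicate 2 was the highest of all 6 libraries and the other WT libraries the lowest. Its log2 fold change was 0.41 (SE 0.34, adjusted p = 0.458) with all libraries and 0.95 without WT replicate 2 (adjusted p = 0.0616, with 0.0616 to 0.78 over all settings). The longest Uvrag transcript shares stretches of up to 345 bases with other genes at 95% identity or more, so its counts are uncertain.

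None of the 5 genes that bring lipid to the growing membrane passed. Atg9a, a lipid scramblase carried on vesicles, came closest: it had 8.82, 9.14 and 6.97 FPKM in the knockdown, against 12.8, 10.7 and 13.2 FPKM in WT. All knockdown values lay below WT, with a log2 fold change of -0.51 (SE 0.13, edgeR adjusted p = 0.0546), and it passed under 6 of 18 other settings. The lipid transfer genes Atg2a and Atg2b had log2 fold changes of 0.34 and 0.10, and the PI3P binding genes Wipi1 and Wipi2 0.04 each. Atg2a, the most abundant of the step in the knockdown, had 13.1, 12.4 and 11.5 FPKM there and 12.0, 9.80 and 8.51 FPKM in WT, so that the highest WT library lay inside the knockdown range. Atg2b, the lowest of the step, had 3.61, 3.35 and 3.24 FPKM in knockdown libraries and 3.37, 3.41 and 3.05 FPKM in WT, and its groups overlapped. Atg2b overlaps Gskip on the other strand over 383 transcript bases. Gskip averaged 5.87 FPKM in knockdown libraries and 5.33 FPKM in WT, so the Atg2b value is uncertain if counting did not use strand.

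The genes that attach and release ATG8 proteins were split, 5 with a positive and 5 with a negative log2 fold change and a median of -0.03. Atg12, the ubiquitin-like protein that is joined to ATG5, was the one that rose, with 12.8, 12.7 and 15.1 FPKM in knockdown libraries and 9.02, 9.19 and 7.98 FPKM in WT (log2 fold change 0.68, SE 0.11, edgeR adjusted p = 0.0165). Its groups were far apart, and it passed under 14 of 18 other settings. Its longest transcript shares 164 bases at 95.1% identity with Syt11, which averaged 3.94 FPKM in knockdown libraries and 6.13 FPKM in WT. Its conjugation partner Atg5, the most abundant gene of the step, had 20.9, 23.6 and 21.8 FPKM in knockdown libraries and 23.6, 23.4 and 19.3 FPKM in WT, with overlapping groups (0.05). The third part of the conjugate, Atg16l1, had 3.70, 3.60 and 3.23 FPKM in knockdown libraries and 4.09, 4.28 and 3.99 FPKM in WT, below WT in every library but not past the test (-0.18, adjusted p = 0.222). The enzymes that load ATG12 and ATG8 proteins did not pass: the E1 gene Atg7 had 0.18, the E2 gene of ATG8 proteins Atg3 -0.11 and the E2 gene of ATG12, Atg10, -0.29. Atg10, the lowest gene of the step in WT, had 3.59, 2.76 and 3.12 FPKM in knockdown libraries and 3.70, 4.02 and 4.27 FPKM in WT, all knockdown values below WT.

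The 4 proteases that mature ATG8 proteins and take them off lipid did not pass and did not share a direction. Atg4c had 6.93, 7.38 and 8.80 FPKM in the knockdown, against 6.64, 6.32 and 5.63 FPKM in WT (0.36, edgeR adjusted p = 0.122). Atg4d, the lowest of the step in the knockdown, had 2.99, 3.52 and 2.79 FPKM there and 4.02, 4.01 and 4.43 FPKM in WT (-0.38, adjusted p = 0.0630). Atg4a had 7.56, 7.74 and 7.91 FPKM in knockdown libraries and 9.77, 9.49 and 8.57 FPKM in WT (-0.21, adjusted p = 0.202). Atg4a-ps, 99.3% identical over 2115 bases, averaged 1.14 FPKM in knockdown libraries and 0.955 FPKM in WT, so the Atg4a value is uncertain where reads were split. Atg4c thus lay above WT in all knockdown libraries, and Atg4a and Atg4d lay below. Atg4b, the isoform with the broadest activity, averaged 4.29 ± 0.277 and 4.19 ± 0.264 FPKM in the knockdown and WT (SD, n = 3 each), with a log2 fold change of 0.09. Atg4d overlaps Kri1 on the other strand over 792 transcript bases, and Kri1 averaged 8.21 FPKM in knockdown libraries and 10.8 FPKM in WT. Whether counting used strand is not given in the sources used here, so reads of this pair may not be told apart.

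All 5 ATG8 genes had higher FPKM in every knockdown library than in any WT library, and 3 of them rose. Gabarapl1 (GRCm38 chromosome 6, 129533160 to 129542346, plus strand) changed most: it had 103, 95.2 and 89.9 FPKM in the knockdown, against 60.2, 49.4 and 47.7 FPKM in WT, a 1.89-fold difference (log2 fold change 0.92, SE 0.12, edgeR adjusted p = 0.0122). Map1lc3a had 21.8, 22.2 and 23.7 FPKM in knockdown libraries and 15.9, 12.7 and 11.1 FPKM in WT (0.81, SE 0.16, adjusted p = 0.0244). For Map1lc3a the WT libraries were spread more widely than the knockdown ones, and the groups did not overlap. Gabarap, the most abundant ATG8 gene, had 294, 267 and 280 FPKM in knockdown libraries and 237, 222 and 222 FPKM in WT (0.35, SE 0.088, adjusted p = 0.0479). Map1lc3b, whose lipidated protein is the usual marker of autophagosomes, had 17.8, 18.3 and 18.2 FPKM in knockdown libraries and 16.4, 13.5 and 12.8 FPKM in WT. At 0.39 (SE 0.11) it did not pass (adjusted p = 0.0706), and neither did Gabarapl2 at 0.27 (SE 0.077, adjusted p = 0.0708), with 22.5, 25.3 and 24.3 FPKM in knockdown libraries and 21.3, 20.4 and 20.3 FPKM in WT. Processed pseudogenes of Gabarapl2 at 96.6% to 99.4% identity averaged up to 2.97 FPKM in knockdown libraries and 1.98 FPKM in WT, so its value is uncertain where reads were split.

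The family total was 459, 428 and 436 FPKM in knockdown libraries and 351, 318 and 314 FPKM in WT. Transcripts of the GABARAP branch made up most of it in each library. Gabarapl1 took 22.4%, 22.3% and 20.6% of the total in the knockdown and 17.2%, 15.6% and 15.2% in WT, and Map1lc3a took 4.76%, 5.19% and 5.43% against 4.53%, 4.01% and 3.55%. Both shares were higher in every knockdown library than in any WT library. Gabarap held 64.0%, 62.4% and 64.2% in the knockdown and 67.6%, 69.8% and 70.7% in WT, lower in every knockdown library although its own level was higher there. These shares compare levels per length and carry no test.

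**Figure D2:**
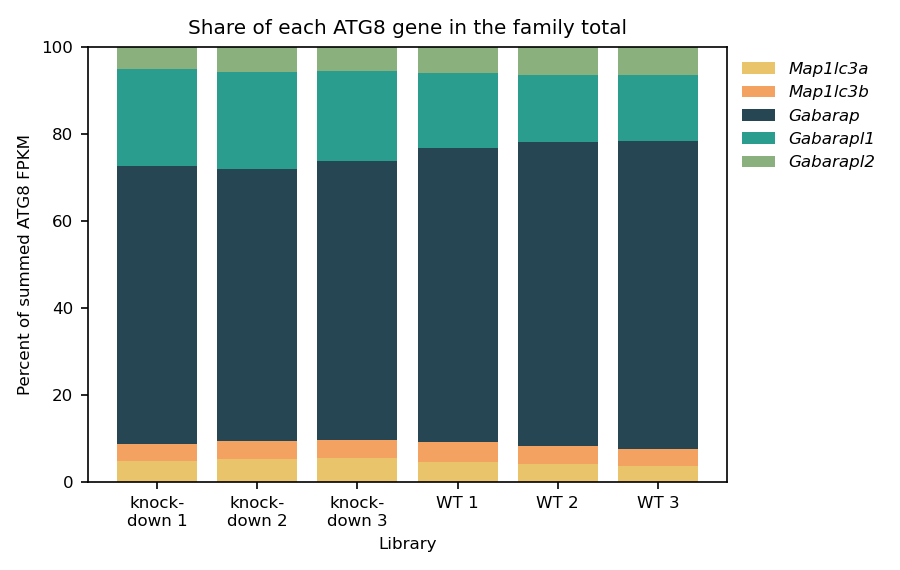
Share of each of the 5 ATG8 genes in the summed FPKM of the family (y axis, percent) in each library (x axis, knockdown left of WT). The Gabarapl1 band is 20.6% to 22.4% high in the knockdown libraries and 15.2% to 17.2% high in WT.

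Of the 4 cargo receptor genes that rose, Optn, Nbr1 and Tax1bp1 encode receptors that bind ubiquitin. Optn (GRCm38 chromosome 2, 5020642 to 5064045, minus strand), which encodes optineurin, a receptor for bacteria, aggregates and damaged mitochondria, showed the largest increase of the 40 genes. It had 12.3, 10.4 and 14.7 FPKM in the knockdown, against 4.98, 5.24 and 4.59 FPKM in WT, a 2.62-fold difference (log2 fold change 1.39, SE 0.16, edgeR adjusted p = 0.0103). Its lowest knockdown library lay well above the highest WT library. An antisense gene that overlaps Optn, 4930551O13Rik, averaged 0.157 FPKM in knockdown libraries and 0.0241 FPKM in WT. Nbr1, a receptor for aggregates and peroxisomes, had 20.8, 19.8 and 24.2 FPKM in knockdown libraries and 14.2, 16.6 and 15.1 FPKM in WT (0.55, SE 0.11, adjusted p = 0.0261). Tax1bp1, a receptor related to the NDP52 family that acts on aggregates and bacteria, had 28.6, 31.1 and 33.5 FPKM in knockdown libraries and 22.7, 22.5 and 22.7 FPKM in WT (0.50, SE 0.081, adjusted p = 0.0165). Both genes had groups that did not overlap.

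Sqstm1, which encodes the receptor p62 and is the most abundant cargo receptor gene in these cells, showed no such difference. It had 256, 291 and 247 FPKM in knockdown libraries and 290, 265 and 251 FPKM in WT, and the groups overlapped. Its log2 fold change was 0.02 (SE 0.096, edgeR adjusted p = 0.893), and it ranged from -0.03 to 0.10 with each library left out. Calcoco1, a receptor for the endoplasmic reticulum and Golgi, had 12.4, 11.1 and 11.4 FPKM in knockdown libraries and 9.91, 8.11 and 6.43 FPKM in WT. Its groups did not overlap, but with the spread within WT it did not pass (0.56, SE 0.17, adjusted p = 0.0793).

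Of the 3 mitophagy receptors, which sit in the outer mitochondrial membrane, Bnip3l (also called NIX) rose. It had 32.9, 35.8 and 43.0 FPKM in knockdown libraries and 26.5, 24.2 and 20.3 FPKM in WT (log2 fold change 0.70, SE 0.15, edgeR adjusted p = 0.0291). The pseudogene Bnip3l-ps, 99.2% identical over 663 bases, averaged 6.47 FPKM in knockdown libraries and 4.74 FPKM in WT, so the Bnip3l value is uncertain where reads were split. Its paralog Bnip3, the lowest receptor gene in the knockdown, had 8.88, 7.53 and 6.86 FPKM there and 8.22, 5.65 and 5.28 FPKM in WT, with overlapping groups (0.33, adjusted p = 0.349). The log2 ratio of Bnip3 to Bnip3l averaged -2.26 ± 0.38 in the knockdown and -1.91 ± 0.21 in WT (SD, n = 3 each), a difference within the spread of the libraries. Fundc1 had 12.7, 13.95 and 13.1 FPKM in knockdown libraries and 11.9, 11.7 and 11.0 FPKM in WT, above WT in each library but not past the test (0.25, adjusted p = 0.1).

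**Figure D3:**
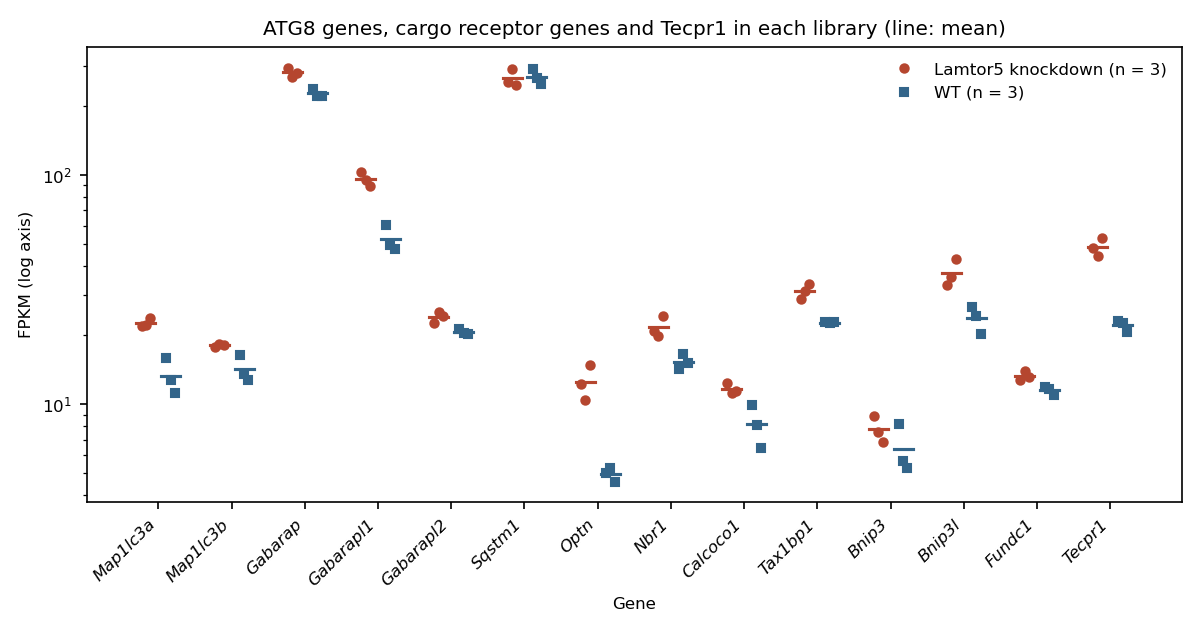
FPKM (y axis, log scale) of the ATG8 genes, the cargo receptor genes and Tecpr1 (x axis) in each knockdown (circles) and WT (squares) library, with the mean of each group as a line (n = 3 each). Circles lie above all squares for each gene except Sqstm1 and Bnip3.

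Tecpr1, a lysosomal protein that binds the ATG12 and ATG5 conjugate and helps autophagosomes meet lysosomes, had the smallest p of the 40 genes. It had 47.8, 44.1 and 53.0 FPKM in the knockdown, against 23.1, 22.6 and 20.7 FPKM in WT, a 2.26-fold difference (log2 fold change 1.18, SE 0.11, edgeR adjusted p = 0.00963). The spread within each group was small beside the gap between them. With each library left out in turn the log2 fold change stayed between 1.10 and 1.26.

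The libraries of a group were not alike over the 40 genes. Knockdown replicate 3 was the highest knockdown library for 15 of the 40 genes (37.5%) and the lowest for 14 (35.0%), where it was the highest for 31.3% and the lowest for 39.4% of all tested genes. Among the 11 genes that rose it was the highest for 9 (Gabarap and Gabarapl1 were the exceptions), and among the 29 others it was the highest for 6 and the lowest for 13. The 11 were picked by their own knockdown values, and no such count was made over all genes called higher. WT replicate 1 was the highest WT library for 23 of the 40 genes (57.5%), where it was so for 31.8% of all tested genes, and WT replicate 3 was the lowest for 27 (67.5%), against 34.5%. Over the 40 genes the median log2 level relative to the WT mean was 0.14, 0.20 and 0.17 in knockdown replicates 1 to 3 and 0.05, 0.00 and -0.09 in WT replicates 1 to 3. The summed FPKM of the 8 cell division genes was 106, 188 and 234 in the same WT libraries. The WT library with the least cell division transcript thus had most of these genes at their highest WT level. In knockdown replicates 1 to 3 that sum was 23.8, 41.5 and 19.1. By the median the knockdown libraries did not show the same order: replicate 2 had the largest sum and also the highest median. By count, knockdown replicates 1 to 3 were the highest knockdown library for 11, 14 and 15 of the 40 genes. These counts were 2, 0 and 9 among the 11 genes that rose, and 9, 14 and 6 among the 29 others. With 3 libraries per group this is a description, and the part of cell division in the differences was not tested.

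**Figure D4:**
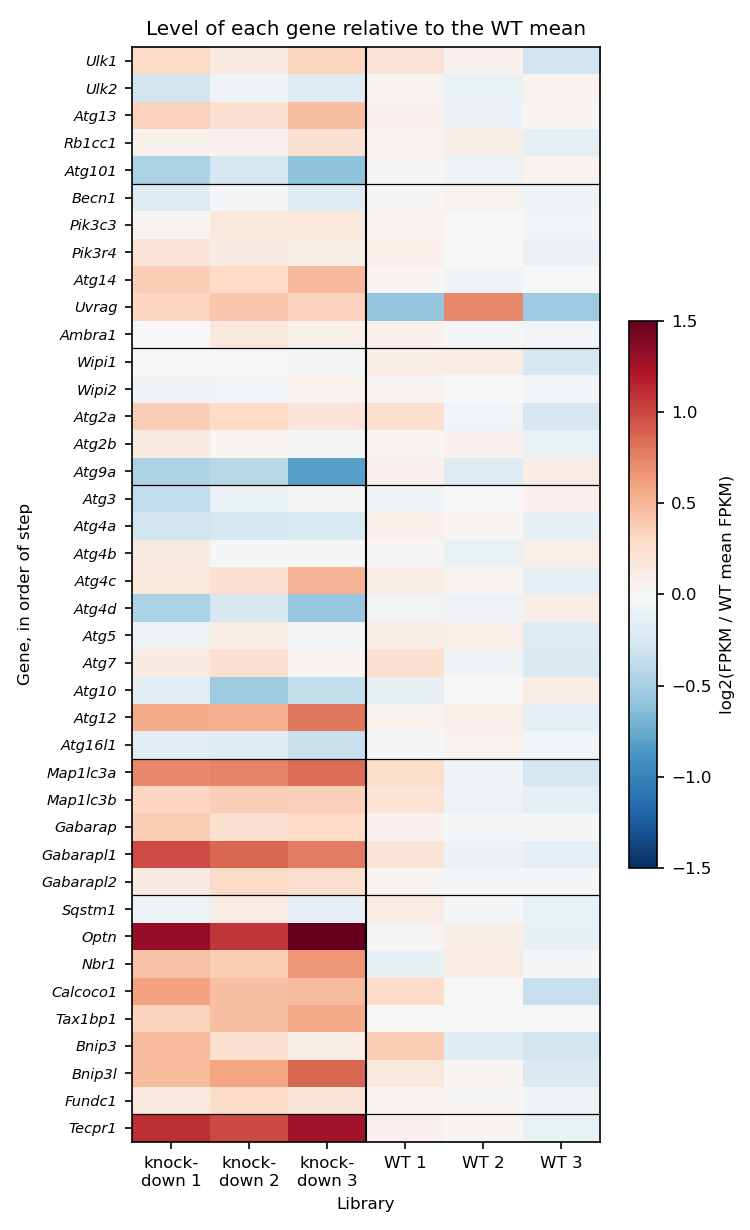
Level of each of the 40 genes (rows, in order of step) in each library (columns, knockdown left of WT) as log2 of FPKM over the gene's mean FPKM in WT. Red rows in the knockdown columns gather in the ATG8, cargo receptor and tethering blocks, and the Uvrag row shows WT replicate 2 apart from the other WT libraries.

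Of 46 further autophagy genes, 45 were tested (Calcoco2 was listed at 0.0001 FPKM in all libraries), and 1 rose and 1 fell, where 4.87% and 6.46% of all tested genes did so, with a median log2 fold change of 0.12. Tollip, an adaptor that also binds ATG8 proteins and ubiquitin, had 23.3, 23.3 and 25.5 FPKM in knockdown libraries and 19.8, 20.1 and 20.2 FPKM in WT (0.31, SE 0.075, edgeR adjusted p = 0.0453). Its call was the less stable one, kept under 7 of 18 other settings. Wdfy3, the scaffold ALFY that brings aggregates to the membrane, fell, with 7.18, 7.61 and 7.55 FPKM in the knockdown, against 10.1, 11.3 and 11.3 FPKM in WT (-0.50, SE 0.069, adjusted p = 0.0129), and was kept under 16 of 18. Tollip and Wdfy3 came from a list of 18 other selective autophagy receptor genes, of which 17 were tested and 15 did not pass. The median log2 fold change of the 17 was 0.12, against 0.52 for the 8 cargo receptor genes above. Every knockdown library lay above WT in 3 of the 17 and below in 1, against 16.3% and 21.3% of all tested genes. None of 8 autophagosome fusion genes, 11 further PI3P and membrane genes or 9 genes of receptor kinases and mitophagy signalling passed. Of the last group, the mitophagy kinase gene Pink1 had 27.0, 26.2 and 32.5 FPKM in knockdown libraries and 21.8, 18.0 and 12.3 FPKM in WT, which did not overlap and did not pass (0.77, SE 0.22, adjusted p = 0.0701). In 9 of the 45 genes every knockdown library lay above WT and in 8 below, against 16.3% and 21.3% of all tested genes.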

How the data were processed

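RNA of 6 libraries of M-CSF-induced mouse macrophages was sequenced, per the labels, with a SMARTER mRNA kit. Per the file headers, adapter trimming used cutadapt 1.9 (overlap 5 bases, shortest read kept 100 bases). The submitters' processing notes name GRCm38 (mm10), and coordinates are those of the table. The sources used here name neither the aligner nor the counting program, nor whether strand was used. The deposited table gives, per its column headers, a count and an FPKM value made by the authors for each gene and library. The counts are whole numbers that sum to 2.95 to 3.01 per read pair kept, so they are not a tally of reads. They are called estimated counts here for that reason, and no counting interval was made from them.

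Groups came from the genotype label. Deposited estimated counts were fitted by group with edgeR 4.0.16 in R 4.3.3 (default quasi-likelihood fit, TMM scaling, filterByExpr with a minimum count of 10). Over the 18164 genes kept, p-values were adjusted by Benjamini-Hochberg, and 0.05 was the threshold. The SE is the log2 fold change divided by the square root of F. The scripts were tested on simulated counts. Other settings were RLE scaling, DESeq2 1.42.0, other count filters, other quasi-likelihood options, counts divided by their number per read pair, limma 3.58.1 on log2(FPKM + 1) and variants of it, a replicate block, and each library left out. The quasi-likelihood option legacy=TRUE was listed as an alternative but is the default of this version, so its opposite was added after seeing the data.

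The members and lists were chosen with earlier results of these data known. Values in every library are given for genes that passed, for all ATG8 and cargo receptor genes, and for the highest and lowest gene of a step; Uvrag, Atg9a, Atg16l1, Atg4a, Atg4c, Atg4d and Pink1 were named after their values were seen. Promoter windows are from RefSeq on GRCm38.p6 and covered 33 of the 40 genes. The longest coding transcripts of the 40 genes were compared with all transcripts of GENCODE M21 by blastn at 95% identity or more. Matches under a set length were dropped, so shorter shared stretches were not looked at. Overlapping genes come from the table's coordinates. Protein sequences were not used here.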

Additional observations from a re-analysis of the deposited data

How the results depend on the processing

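Among the 40 genes, Tollip and Wdfy3, none changed sign between the fit with all libraries and another setting where it passed in either. The count of genes called over the whole table was 2058; it was 3579 with DESeq2, 1205 without a filter on low counts, 789 with limma without a filter and 728 with the replicate block, and 0 to 2334 with each library left out in turn. Of the 40 autophagy genes, 11 were called higher; 7 were without a filter, 6 with limma without a filter, 3 with the replicate block and 0 to 11 with a library left out. None was called lower in edgeR (3 had an unadjusted p under 0.05), but 3 were with DESeq2 (Atg101, Atg4d and Atg9a), 2 with limma on log2(FPKM + 1) or log2(FPKM + 0.1), 1 each with a minimum count of 50, with legacy=FALSE, with counts divided by their number per read pair and with quantile normalization, and 0 with each library left out. Of the other autophagy genes, 1 was called higher; the number was 5 with DESeq2, 4 with a minimum count of 50, 4 with divided counts, 3 with quantile normalization, 0 without a filter, in the other limma fits and with the replicate block, and 0 to 2 with a library left out. For those lower it was 1 against 2 with DESeq2 and 0 to 2 with a library left out. The median log2 fold change of the 40 genes was 0.22, against 0.16 with limma on log2(FPKM + 1), filtered or not, 0.17 with the smaller pseudocount, and 0.15 to 0.26 with a library left out. The causes were not tested.

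Both groups carry the replicate numbers 1 to 3. Same-numbered libraries deviated from their group means with correlations of 0.0458, 0.0361 and -0.0108 across genes, and not every library correlated best with its own number, so the numbers were not taken as pairs. The 3 genes called with the replicate block were Optn, Tecpr1 and Gabarapl1. Leaving a library out lowers the samples in a group, and in these fits the group of fewer libraries shares its spread with the other. The lowest estimated count of the 40 genes in a library was 406 (Atg10), and the part of depth was not tested.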
